A study of Homo sapiens with 9 samples.

Results

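The SLC25A genes encode the mitochondrial carrier family, and they were taken from the count table as every gene whose symbol is SLC25A followed by a number. The table held 40 such genes among 16612 genes, and all 40 entered the test among 16312 genes. The symbols SLC25A2, SLC25A18, SLC25A21, SLC25A27, SLC25A31, SLC25A41, SLC25A47 and SLC25A52 were not analysed here. The cells were HNT34, a human acute myeloid leukemia line with high EVI1, the transcription factor that the MECOM gene encodes. Polyadenylated RNA was sequenced 3 days after selection of cells that carried either a control hairpin without a target (NT) or 1 of a pair of hairpins against EVI1, sh#16 and sh#87. Each group had 3 libraries. All 9 libraries came from this 1 line, and its SLC25A levels were compared between cells with the control shRNA and cells with each EVI1-directed shRNA.

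Carriers of this family are small membrane proteins that move metabolites across the inner mitochondrial membrane, which is otherwise closed to charged molecules. Most exchange a substrate of the matrix for one of the intermembrane space, so that ATP leaves as ADP enters and malate, citrate, amino acids and cofactors pass between the compartments. In blood cells several members supply heme synthesis: mitoferrins bring in iron, SLC25A38 glycine and SLC25A39 glutathione. The proteins are made in the cytosol and inserted by a dedicated import route.

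Libraries held between 17096170 and 43502389 counts. Levels are given as CPM, the library-scaled count unit after TMM normalization,, and levels of different genes were compared only as CPM per kb of 1 transcript per gene. MECOM was at 570, 503 and 440 CPM in NT, 146, 143 and 146 CPM in sh#16, and 109, 107 and 106 CPM in sh#87 libraries, lower in each knockdown library. Of 8 myeloid leukemia markers, 7 were in the table. Their summed level, which includes MECOM, was 2337 to 2643 CPM in NT, 705 to 712 CPM in sh#16 and 456 to 459 CPM in sh#87. With both shRNAs together 5 of these 7 were called lower and 2 were not called, where 29.7% of all genes were called lower. CD34 and PTPRC (CD45) marked the NT cells at mean levels of 729 and 853 CPM. Of 10 erythroid markers only EPOR was in the table, at 1.46 to 2.86 CPM in NT and 9.77 to 14.6 CPM in knockdown libraries, with hemoglobin genes not analysed here. Summed levels of 3 of 7 monocyte and macrophage markers were 38.9 to 51.7, 86.5 to 86.9 and 58.9 to 63.4 CPM in NT, sh#16 and sh#87. The corresponding ranges were 23.5 to 47.4, 8.46 to 9.52 and 4.07 to 5.28 CPM for 3 of 6 B and T cell markers. They were 47.5 to 54.4, 42.9 to 45.7 and 45.1 to 47.2 CPM for 3 of 7 fibroblast and epithelium markers. Members of these lists moved in opposite directions: COL1A1 rose from a mean of 0.116 CPM in NT to 26.4 CPM in sh#16 and 29.3 CPM in sh#87 (log2 7.83), while PDGFRB (-5.92) and KRT8 (-1.31) fell. Among the monocyte markers ITGAM (1.02) and LYZ (1.72) rose and CSF1R (-2.08) fell, and of the lymphocyte markers CD79A (-3.36) and CD3E (-1.20) fell. None of the measured markers was at 0 in a whole group. Mitochondrially encoded RNA took 4.69% to 15.9% of counts in NT, 2.69% to 2.88% in sh#16 and 4.62% to 5.97% in sh#87. The part of these differences in the results below was not tested. Leaving out the mitochondrially encoded genes left the number of SLC25A genes called with both shRNAs at 27. That fit changes little but the scaling, so it cannot show whether the library differences shaped the SLC25A levels. In bulk RNA, fewer cells of a type and less RNA per cell cannot be told apart. The labels do not say that the libraries came from separate cultures, so p-values measure the spread between these libraries. With both shRNAs together, that spread includes the difference between sh#16 and sh#87. For SLC25A5 the SE was 0.17 in that fit, and 0.07 with each shRNA alone.

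SLC25A mRNA levels differed between knockdown and NT cells in both directions, as did those of many genes of the whole table. Between the 6 knockdown and 3 NT libraries, 17 of 40 SLC25A genes (42.5%) were higher and 10 (25%) were lower at an adjusted p of at most 0.01 in the edgeR quasi-likelihood test. Among all genes tested, 30.1% were higher and 29.7% lower in this comparison. The median log2 fold change of the 40 genes was 0.36, beside 0.05 for all genes tested. When a 4-fold change in either direction (2 on the log2 scale) was also required, SLC25A10, SLC25A25, SLC25A34, SLC25A39 and SLC25A42 were higher and SLC25A48 was lower. This was 12.5% and 2.5% of the members, where 9.74% and 5.66% of all genes passed in each direction. The 6 knockdown libraries lay entirely above the 3 NT libraries for 19 members and entirely below for 10, which was so for 34.1% and 31.9% of all genes.

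Each shRNA was then compared with NT on its own, and both comparisons used the same NT libraries. With sh#16, 17 members were higher and 9 lower (29.8% and 30.2% of all genes), and with sh#87, 18 were higher and 11 lower (34.3% and 33.6% of all genes). The 5 higher and 1 lower members named above also passed the 4-fold limit in each. Genes of the whole table passed this limit in 7.95% and 4.84% of cases with sh#16 and in 11.7% and 7.14% with sh#87. The median log2 fold change was 0.41 with sh#16 and 0.46 with sh#87, beside 0.04 over all genes in both.

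**Figure D1:**
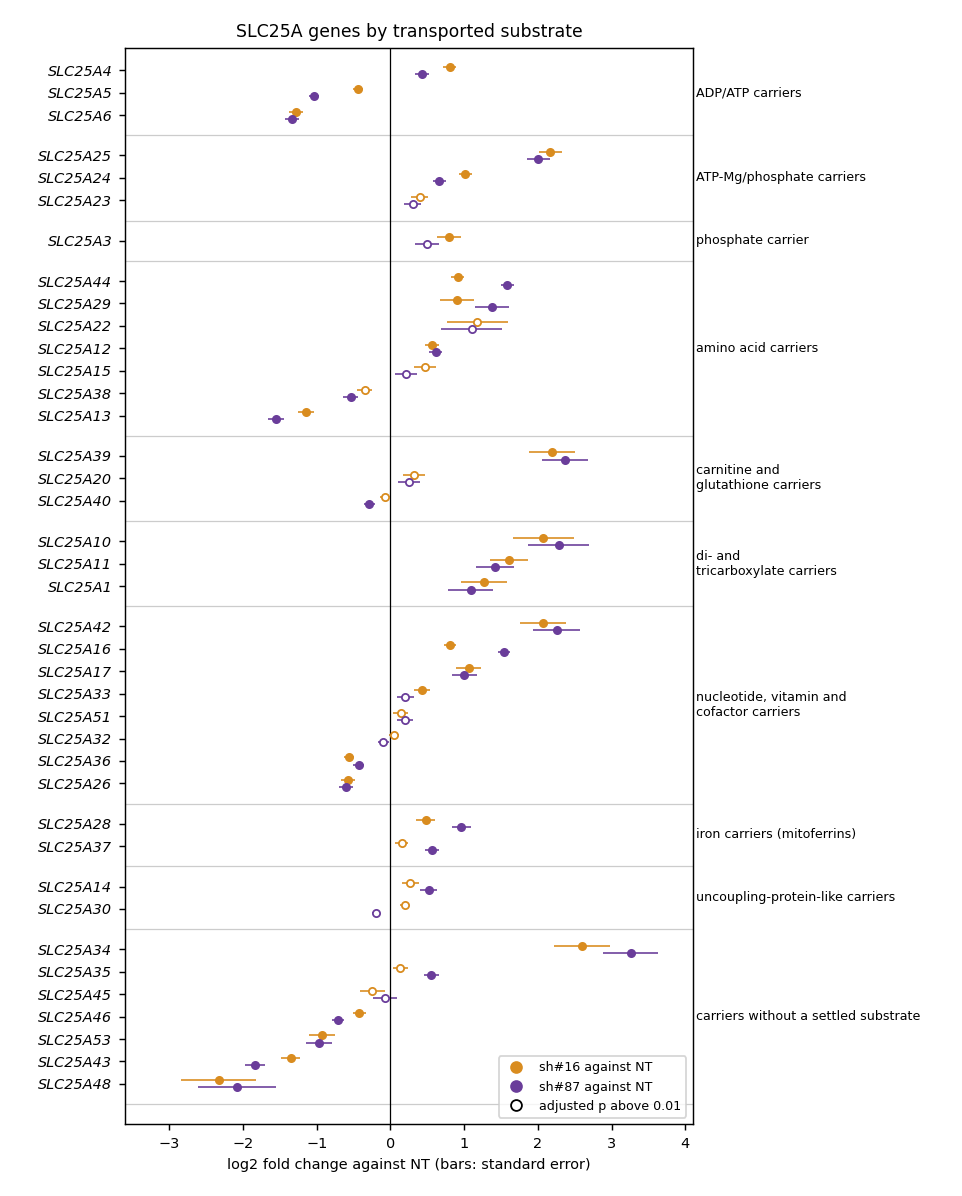
Log2 fold change against NT of 39 SLC25A genes (rows, grouped by transported substrate) with sh#16 and sh#87. Bars are standard errors derived from the edgeR log2 fold change and F statistic, and open circles have an adjusted p above 0.01. The di- and tricarboxylate carriers lie to the right, while within the ADP/ATP, amino acid and cofactor carriers members lie on both sides of 0.

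NT libraries varied more among themselves than knockdown libraries did, by a biological coefficient of variation of 23.0% among the NT, 3.67% among the sh#16 and 6.23% among the sh#87 libraries. Of the 40 members, 8 spanned more than 2-fold within NT (SLC25A1, SLC25A10, SLC25A11, SLC25A22, SLC25A29, SLC25A34, SLC25A39 and SLC25A42), as did 21.2% of all genes. NT replicate 3, which also had the lowest mitochondrially encoded share of the NT libraries, lay nearest to the knockdown mean for 27 members, among them 15 of the 17 called higher and 6 of the 10 called lower. The share of all genes for which that library lay nearest was not computed, so this is not a trait shown to be particular to the carriers. Without that library 30 members were called, and without NT replicate 2, 20 were.

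**Figure D2:**
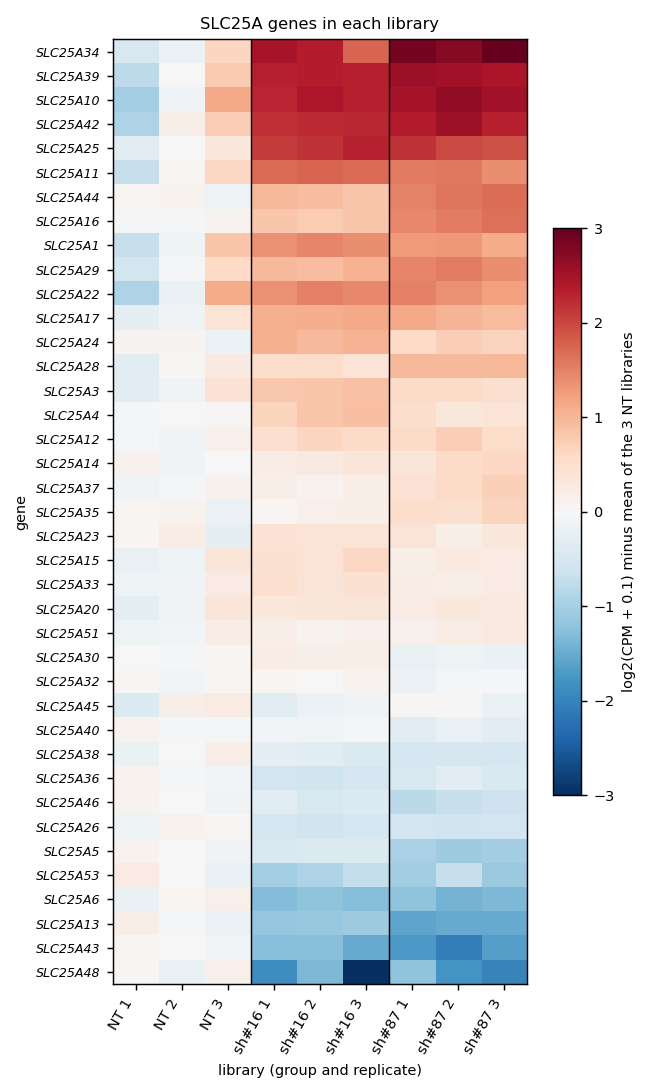
Level of 39 SLC25A genes in each library as log2(CPM + 0.1) minus the mean of the 3 NT libraries, rows ordered by log2 fold change with both shRNAs. The upper rows are red in all knockdown libraries and NT replicate 3 is the NT library nearest to most of them, while SLC25A6, SLC25A13, SLC25A43 and SLC25A48 at the foot are blue.

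Among the most abundant carriers the ADP/ATP carriers exchange matrix ATP for cytosolic ADP. Per kb of transcript, SLC25A6 and SLC25A5 had the highest levels of the family in NT, at 253 and 211 CPM per kb, and their libraries overlapped. SLC25A6 (ANT3; chrX:1386152-1392113 in GRCh38.p14, in the pseudoautosomal region) was at 319, 380 and 404 CPM in NT, 149, 157 and 150 CPM in sh#16, and 157, 136 and 144 CPM in sh#87. The groups did not overlap, and SLC25A6 fell by 1.31 ± 0.09 on the log2 scale (SE; adjusted p = 9.0e-07). SLC25A5 (ANT2; chrX:119468444-119471396) was at 296, 279 and 255 CPM in NT, 202, 203 and 207 CPM in sh#16, and 141, 132 and 133 CPM in sh#87. Its 3 groups stood apart in that order. With both shRNAs together SLC25A5 fell by 0.71 ± 0.17 (adjusted p = 0.0037), a call lost without NT replicate 1 (log2 -0.67) and without NT replicate 2 (log2 -0.70). With sh#16 alone (-0.44) and with sh#87 alone (-1.03) it was called in 20 of 20 alternative settings. SLC25A4 (ANT1), the isoform typical of heart and muscle, rose from 10.8 to 11.5 CPM in NT to 14.1 to 21.0 CPM in knockdown libraries (log2 0.63 ± 0.14, adjusted p = 0.0025). That call was also lost without NT replicate 1 (0.59) or NT replicate 2 (0.63). SLC25A4 was called in 20 of 20 alternative settings with sh#16 alone and in 19 of 20 with sh#87 alone. Per kb, SLC25A4 made up 0.542% ± 0.00947 of the summed ADP/ATP carrier level in NT, 1.67% ± 0.119 in sh#16 and 1.65% ± 0.0320 in sh#87 (SD, n = 3). Near-identical copies of SLC25A5 and SLC25A6 exist in the genome, so reads may be split among them and these values are uncertain.

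Phosphate enters the matrix through SLC25A3 (chr12:98593686-98606367). It was at 149, 176 and 256 CPM in NT, 330, 338 and 345 CPM in sh#16, and 280, 283 and 262 CPM in sh#87. All knockdown libraries lay above all NT libraries, with NT replicate 3 close to the sh#87 values. SLC25A3 rose with both shRNAs (log2 0.66 ± 0.17, adjusted p = 0.0052) and with sh#16 (0.80 ± 0.17, adjusted p = 0.0021), while the adjusted p with sh#87 was 0.020. The call with both shRNAs was lost in 5 of 9 fits that left out 1 library: NT replicate 1 (0.49), NT replicate 2 (0.59) or any sh#16 library (0.62 to 0.64). Its per-kb level, 32.4 CPM per kb in NT, is uncertain because its coding transcripts differ in length from 0.556 to 6.087 kb.

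The calcium-regulated ATP-Mg/phosphate carriers change the total adenine nucleotide content of the matrix. SLC25A25 (chr9:128068232-128109245) was at 7.20, 8.91 and 11.3 CPM in NT, 38.8, 40.6 and 44.5 CPM in sh#16, and 40.9, 36.0 and 33.8 CPM in sh#87. Every knockdown library was above every NT library by a wide margin, and the knockdown groups overlapped. It rose 4.26-fold (log2 2.09 ± 0.16, adjusted p = 1.5e-06). An antisense gene, SLC25A25-AS1, also rose (log2 2.15 ± 0.34, adjusted p = 0.00023), and reads of the pair can be told apart only if counting used strand, which is not given in the sources used here. SLC25A24 rose from 22.0 to 26.5 CPM in NT to 37.9 to 52.1 CPM (log2 0.85 ± 0.14, adjusted p = 0.00025). SLC25A23, at 43.6 to 61.2 CPM in NT and 61.0 to 70.8 CPM in knockdown libraries, did not pass the test.

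Di- and tricarboxylate carriers connect the citric acid cycle with the cytosol, and all 3 measured members rose, as did 30.1% of all genes. SLC25A10 (chr17:81712284-81721012), which exchanges malate or succinate for phosphate, was at 2.19, 4.19 and 10.1 CPM in NT, 22.7, 25.0 and 23.2 CPM in sh#16, and 26.3, 29.1 and 26.5 CPM in sh#87. The groups did not overlap although NT libraries spread over 4.61-fold. The log2 fold change was 2.19 ± 0.38 (adjusted p = 0.00042). SLC25A11, the oxoglutarate/malate carrier of the malate-aspartate shuttle, rose from 17.6 to 44.1 CPM in NT to 75.3 to 95.7 CPM (log2 1.52 ± 0.24, adjusted p = 0.00021). SLC25A1, which exports citrate for lipid synthesis, rose from 6.22 to 18.0 CPM to 21.8 to 28.3 CPM (log2 1.19 ± 0.27, adjusted p = 0.0027), a call lost without NT replicate 2 (log2 1.06). After a correction for transcript length and GC content, added after the data were seen, the log2 fold changes of SLC25A10 and SLC25A1 were 1.45 and 0.49, both still called. The SLC25A1 call was lost when a replicate block was added to the correction (0.50). With sh#87 alone it was lost in 11 of 20 alternative settings, among them the correction (0.37), and with sh#16 alone in 5 of 20.

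Glutathione reaches the matrix through SLC25A39, with SLC25A40 as its close relative. SLC25A39 (chr17:44319628-44324823) was at 19.7, 34.3 and 58.4 CPM in NT, 171, 175 and 171 CPM in sh#16, and 201, 196 and 187 CPM in sh#87. All 3 groups stood apart, and the highest NT library was well below the lowest knockdown library. It rose 4.87-fold (log2 2.29 ± 0.28, adjusted p = 4.4e-05). In CPM per kb SLC25A39 was the fifth member in NT at 23.7 and reached 109 in sh#16 and 123 in sh#87. SLC25A40 was at 45.7 to 51.6 CPM in NT, 45.0 to 47.2 CPM in sh#16 and 37.7 to 42.1 CPM in sh#87, was not called with both shRNAs together, and was lower with sh#87 (log2 -0.29 ± 0.07, adjusted p = 0.0061). That last call turned to 0.26 after the length and GC correction, and was lost without any sh#16 library, sh#87 replicate 1 or sh#87 replicate 3, with values from -0.29 to -0.25. The carnitine/acylcarnitine carrier SLC25A20, at 9.52 to 14.8 CPM in NT and 13.5 to 14.9 CPM in knockdown libraries, was not called.

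**Figure D3:**
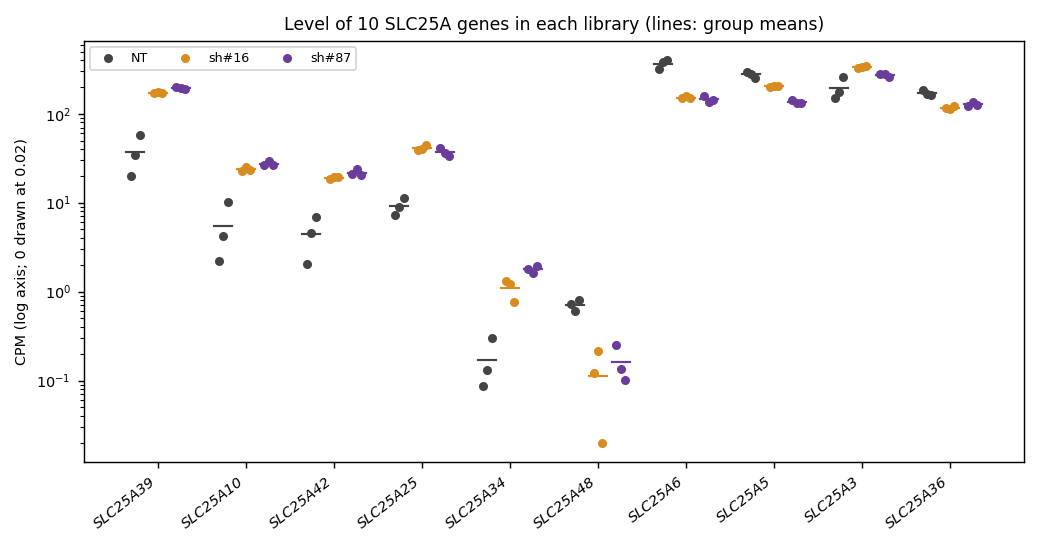
CPM (log axis) of the 6 SLC25A genes past the 4-fold limit and of the remaining 4 with the highest CPM per kb in NT; points are libraries, lines group means, and the 1 library with 0 counts is drawn at 0.02. SLC25A39, SLC25A10, SLC25A42, SLC25A25 and SLC25A34 have all knockdown points above the NT points, and SLC25A48, SLC25A6, SLC25A5 and SLC25A36 have them below.

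Amino acid carriers moved in both directions, 3 higher, 2 lower and 2 not called of 7, where 30.1% and 29.7% of all genes were higher and lower. SLC25A44, the carrier of branched-chain amino acids, rose from 38.6 to 46.5 CPM in NT to 76.8 to 138 CPM in knockdown libraries (log2 1.29 ± 0.21, adjusted p = 0.00033). SLC25A29, which carries basic amino acids, rose from 14.3 to 32.0 CPM to 40.6 to 61.6 CPM (log2 1.16 ± 0.25, adjusted p = 0.0016), but its call was lost without NT replicate 2 (1.11) and after the length and GC correction (0.31). The aspartate/glutamate carriers SLC25A12 and SLC25A13, which both serve the malate-aspartate shuttle, went in opposite directions. SLC25A12 rose from 19.5 to 23.2 CPM to 29.9 to 35.0 CPM (log2 0.59 ± 0.10, adjusted p = 0.00028). SLC25A13 (citrin) fell from 26.9 to 35.4 CPM to 10.2 to 14.5 CPM (log2 -1.33 ± 0.14, adjusted p = 1.7e-05). The glycine carrier SLC25A38, needed for heme synthesis, fell from 30.1 to 39.5 CPM to 23.8 to 29.0 CPM (log2 -0.44 ± 0.11, adjusted p = 0.0045), a call lost in 5 of 9 fits without 1 library, which were NT replicate 2 (-0.44), NT replicate 3 (-0.36) and each sh#87 library (-0.42 to -0.41). With sh#87 alone (-0.54) SLC25A38 was called in 20 of 20 alternative settings, and with sh#16 alone it was not called. The glutamate carrier SLC25A22 was at 3.77 to 15.9 CPM in NT and 17.0 to 21.0 CPM in knockdown libraries, which did not overlap, yet its adjusted p was 0.014. The ornithine carrier SLC25A15 was not called.

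Cofactor and nucleotide carriers had 4 members higher, 2 lower and 3 not called of 9, beside 30.1% higher and 29.7% lower among all genes. SLC25A42 (chr19:19063994-19113030), which imports coenzyme A, was at 2.06, 4.54 and 6.83 CPM in NT, 18.5, 19.2 and 19.4 CPM in sh#16, and 20.8, 23.8 and 20.5 CPM in sh#87. Each group lay above the one before, with NT the lowest. The rise was 4.50-fold (log2 2.17 ± 0.30, adjusted p = 8.9e-05). SLC25A16, which has been linked to coenzyme A, rose from 17.1 to 19.1 CPM to 30.4 to 55.7 CPM (log2 1.22 ± 0.23, adjusted p = 0.00071). The peroxisomal carrier SLC25A17 rose from 8.92 to 14.8 CPM to 21.5 to 24.3 CPM (log2 1.03 ± 0.15, adjusted p = 0.00014). SLC25A36 (chr3:140941836-140980995), which carries pyrimidine nucleotides and had 30.0 CPM per kb in NT, was at 184, 168 and 160.8 CPM in NT, 115, 112 and 121 CPM in sh#16, and 123, 135 and 124 CPM in sh#87. The NT libraries were the 3 highest. SLC25A36 fell by 0.50 ± 0.08 (adjusted p = 0.00032), while after the length and GC correction the value was -0.10 and not called. The S-adenosylmethionine carrier SLC25A26 fell by 0.58 ± 0.11 (adjusted p = 0.00063). The pyrimidine nucleotide carrier SLC25A33, the folate carrier SLC25A32 and the NAD+ carrier SLC25A51 were not called with both shRNAs together.

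Both mitoferrins, the iron carriers of the inner membrane, were measured. SLC25A28 (mitoferrin-2) rose from 13.6 to 20.1 CPM in NT to 22.3 to 33.8 CPM in knockdown libraries (log2 0.74 ± 0.18, adjusted p = 0.0040). Its call was lost without NT replicate 1 (0.59), without NT replicate 2 (0.75) and after the length and GC correction (0.30). With sh#87 alone (0.96) SLC25A28 was called in 20 of 20 alternative settings, and with sh#16 alone (0.48) in 8 of 20. SLC25A37 (mitoferrin-1), the isoform of developing red cells, was at 54.5 to 64.6 CPM in NT, 63.5 to 67.9 CPM in sh#16 and 79.5 to 96.2 CPM in sh#87. It was not called with both shRNAs together and rose with sh#87 (log2 0.56 ± 0.09, adjusted p = 0.00031). Of the uncoupling-protein-like carriers, SLC25A14 and SLC25A30 were not called with both shRNAs together.

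Carriers grouped as having no settled substrate had 1 member higher, 4 lower and 2 not called of 7. Among all genes 30.1% were higher and 29.7% lower. SLC25A34 (chr1:15736258-15741392) was scarce, with 2, 3 and 9 counts in NT, 33, 56 and 14 in sh#16, and 43, 36 and 38 in sh#87. As levels these were 0.0858, 0.130 and 0.300 CPM in NT, 1.33, 1.21 and 0.769 CPM in sh#16, and 1.79, 1.61 and 1.93 CPM in sh#87. No knockdown library reached down to NT, where 2 of 3 libraries were at or under the 3-count floor. The log2 fold change of 2.97 ± 0.44 (adjusted p = 0.00016) therefore rests on few NT reads. SLC25A48 (chr5:135579172-135888637) was likewise scarce, with 17, 14 and 24 counts in NT, 3, 10 and 0 in sh#16, and 6, 3 and 2 in sh#87. In CPM it was at 0.729, 0.605 and 0.799 in NT, 0.120, 0.216 and 0 in sh#16, and 0.249, 0.134 and 0.102 in sh#87. The NT libraries were the highest, and most knockdown libraries were near the floor. SLC25A48 fell by 2.24 ± 0.45 (adjusted p = 0.0012). With sh#16 alone the call was lost without sh#16 replicate 1 (log2 -2.26), and with sh#87 alone it was lost without NT replicate 2 (-2.18), sh#87 replicate 2 (-1.95) or sh#87 replicate 3 (-1.86). SLC25A43 fell from 13.5 to 14.8 CPM to 3.31 to 5.90 CPM (log2 -1.57 ± 0.17, adjusted p = 2.1e-05) and SLC25A53 from 5.43 to 7.55 CPM to 2.90 to 3.94 CPM (log2 -0.94 ± 0.16, adjusted p = 0.00045). SLC25A46, an outer membrane protein with a role in mitochondrial shape, fell by 0.56 ± 0.11 (adjusted p = 0.0012), with -0.13 and no call after the length and GC correction. SLC25A35 and SLC25A45 were not called with both shRNAs together. With sh#87 alone SLC25A35 rose (log2 0.55 ± 0.10, adjusted p = 0.00072), with 0.26 and no call after the length and GC correction.

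Related carriers were set side by side as a ratio of counts per kb within each library, which does not depend on library scaling and was not corrected for base composition. SLC25A12 over SLC25A13 was 0.556 ± 0.118 in NT, 1.79 ± 0.0985 in sh#16 and 2.45 ± 0.164 in sh#87 (SD, n = 3), so the more abundant of the pair changed. SLC25A39 over SLC25A40 was 2.03 ± 1.11 in NT, 9.61 ± 0.285 in sh#16 and 12.7 ± 0.890 in sh#87. SLC25A25 over SLC25A24 was 0.462 ± 0.154, 1.01 ± 0.0770 and 1.15 ± 0.157 in the same order. The GC content of the pair members was 42.5% and 44.3% for SLC25A12 and SLC25A13, 61.5% and 34.3% for SLC25A39 and SLC25A40, and 57.7% and 38.5% for SLC25A25 and SLC25A24. After the length and GC correction the log2 fold changes with sh#87 were 0.94 and -1.26, 1.86 and 0.26, and 1.59 and 1.11 in the same order, against 0.61 and -1.55, 2.37 and -0.29, and 2.01 and 0.66 without it. In each of these pairs, uncorrected, the 6 knockdown libraries lay above the 3 NT libraries. SLC25A33 over SLC25A36 was also higher in all knockdown libraries, and SLC25A37 over SLC25A28 was lower. SLC25A5 over SLC25A6 was 0.849 ± 0.167 in NT, 1.49 ± 0.0506 in sh#16 and 1.03 ± 0.0417 in sh#87, and here knockdown and NT libraries overlapped.

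**Figure D4:**
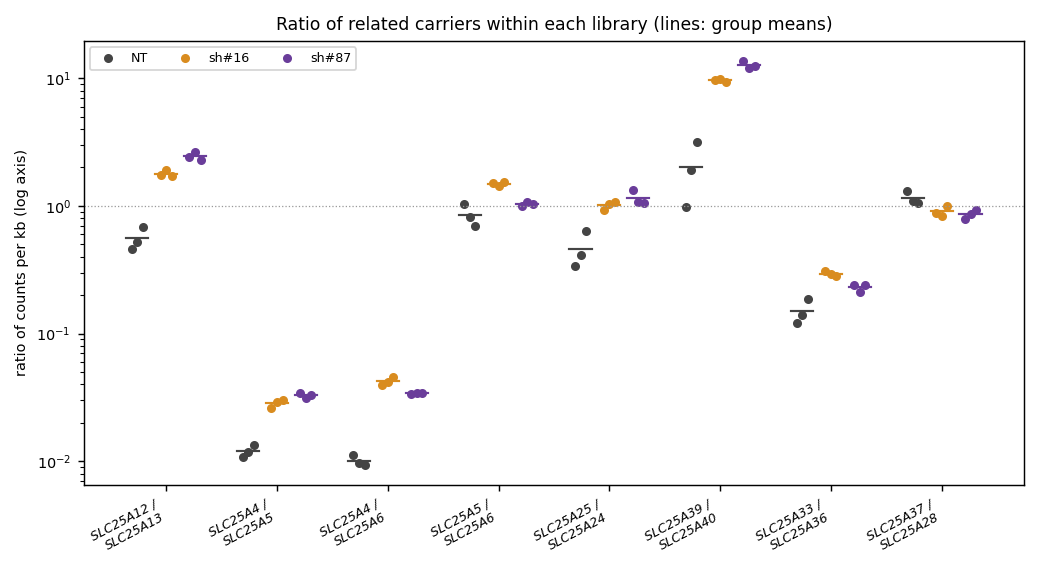
Ratio of counts per kb (log axis) between 8 pairs of related SLC25A genes in each library; points are libraries, lines group means, and the dotted line marks equal levels. SLC25A12 over SLC25A13 passes from below to above 1, and SLC25A39 over SLC25A40 rises from a mean of 2.03 in NT to 9.61 and 12.7 in knockdown libraries, without a correction for the GC content in which that pair differs.

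The summed level of all 40 members was 1742 to 2019 CPM in NT, 2088 to 2121 CPM in sh#16 and 2006 to 2046 CPM in sh#87. NT replicate 3 lay within the range of the sh#87 libraries for this sum.

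The shRNAs were also compared directly. Between sh#87 and sh#16, 3 members were higher and 2 lower with sh#87, while 8.29% and 9.42% of all genes were higher and lower. SLC25A16 was at 48.1 to 55.7 CPM in sh#87 and 30.4 to 31.9 CPM in sh#16 (log2 difference 0.73 ± 0.08, adjusted p = 0.00038). SLC25A44 was at 122 to 138 CPM and 76.8 to 86.9 CPM (0.67 ± 0.09, adjusted p = 0.00078). The third was SLC25A37 (0.41 ± 0.09, adjusted p = 0.0079), whose call was lost without NT replicate 2 (0.41), any sh#16 library, sh#87 replicate 2 or sh#87 replicate 3 (0.34). In the other direction were SLC25A5 (-0.59 ± 0.07, adjusted p = 0.00043) and the uncoupling-protein-like SLC25A30 (-0.39 ± 0.06, adjusted p = 0.0014). SLC25A30 was at 70.7 to 74.1 CPM in sh#87, 92.9 to 95.8 CPM in sh#16 and 78.9 to 86.1 CPM in NT between them, and its call was lost without sh#16 replicate 1 (-0.38). It was also lost after the length and GC correction (-0.26). MECOM itself was lower with sh#87 than with sh#16 (-0.43 ± 0.09, adjusted p = 0.0066). The other 35 members were not called between the shRNAs. Of these, SLC25A14, SLC25A35, SLC25A38 and SLC25A40 were called against NT with sh#87 and not with sh#16, and their differences between the shRNAs had adjusted p of 0.12, 0.012, 0.19 and 0.051. SLC25A3 and SLC25A33 were called with sh#16 and not with sh#87, and the adjusted p of the difference was 0.20 and 0.15.

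Base composition differed between the members that rose and those that fell. The transcripts of the 17 higher members had a median GC content of 57.7% (38.5% to 65.3%), and those of the 10 lower members 46.8% (35.8% to 60.7%). Over all genes tested with a known transcript, the medians were 53.2% for 4124 genes called higher and 44.8% for 4447 called lower. With the length and GC correction, 28 members were called, 19 higher and 9 lower, and the median over the members was 0.33, beside -0.05 over all genes. Of the 6 members past the 4-fold limit, SLC25A39 (1.78), SLC25A25 (1.70), SLC25A42 (1.70) and SLC25A10 (1.45) were called below it. For the others, SLC25A34 (2.50) and SLC25A48 (-2.67), the values rest on the few reads given above. SLC25A34 was near the floor in NT, and SLC25A48 in most knockdown libraries. Without NT replicate 1, SLC25A39 (1.97), SLC25A25 (1.94), SLC25A42 (1.82) and SLC25A10 (1.80) were also called below that limit.

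The 250 bases upstream of each RefSeq start were searched for the canonical E-box CACGTG, which Myc and related factors bind, on both strands (the letters read the same on each). The motif was chosen after the expression values were seen, since MYC fell with each shRNA. The log2 fold change of MYC was -0.51 ± 0.13 with sh#16 (adjusted p = 0.0066) and -1.87 ± 0.14 with sh#87 (adjusted p = 1.9e-06). MYC was not called with both together (adjusted p = 0.026), a fit in which the difference between the shRNAs counts as spread. Upstream windows matched 34 of the 40 members, and 7 of these members held the motif. It was present in 11% of the 10372 tested genes with a window, and in 6.35% of all 34961 RefSeq windows. SLC25A13, SLC25A26, SLC25A36, SLC25A38 and SLC25A46 were 5 of the 10 members called lower, SLC25A33 and SLC25A51 were not called, and none of the 15 matched members called higher with both shRNAs together held it. With sh#16 alone 4 members with the motif were lower and SLC25A33 was higher (log2 0.43 ± 0.11, adjusted p = 0.0064). That SLC25A33 call was lost in 10 of 20 alternative settings, among them 8 of 9 fits without 1 library. Over all tested genes, 35.9% of those with the motif and 32.9% of those without were called lower, and 27% and 29.2% were called higher. Windows of the members called lower are shown with the E-box in capitals, 5′ to 3′ on the gene's strand, from RefSeq in GRCh38.p14. In order they are SLC25A13 (chr7:96322207-96322292, minus strand), SLC25A26 (chr3:66220911-66220996, plus, with 2 matches), SLC25A36 (chr3:140941653-140941738, plus), SLC25A38 (chr3:39383286-39383369, plus) and SLC25A46 (chr5:110738920-110739005, plus). The windows of SLC25A26 and SLC25A46 lie upstream of a start inside the gene (chr3:66133610-66378927 and chr5:110738145-110765157). Those of SLC25A33 and SLC25A51 are not shown, so the printed sequences were picked by call. A link between the motif and the levels was not tested.
SLC25A13: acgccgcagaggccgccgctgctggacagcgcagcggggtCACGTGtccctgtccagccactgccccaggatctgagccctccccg
SLC25A26: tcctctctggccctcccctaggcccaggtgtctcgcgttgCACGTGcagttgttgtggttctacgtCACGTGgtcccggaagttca
SLC25A36: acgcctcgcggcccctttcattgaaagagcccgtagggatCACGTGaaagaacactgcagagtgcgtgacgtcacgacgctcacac
SLC25A38: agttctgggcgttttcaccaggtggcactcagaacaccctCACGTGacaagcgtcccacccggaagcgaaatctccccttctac
SLC25A46: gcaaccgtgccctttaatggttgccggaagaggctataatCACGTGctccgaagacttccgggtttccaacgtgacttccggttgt

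Genes that work with the carriers were read from lists. Their counts stand beside 30.1% higher and 29.7% lower among all genes tested with both shRNAs. Of the 13 genes of the carrier import route, 1 was higher and 5 were lower with both shRNAs. The largest changes were in TIMM29 (log2 1.40), a part of the TIM22 inner membrane complex, and in the chaperones TIMM10B (-0.89) and TIMM9 (-0.78). Of 20 other mitochondrial membrane transporters, 6 were higher and 7 lower. MCUB, a partner of the calcium uniporter MCU, rose by 4.16 ± 0.20 from 0.303 to 0.433 CPM to 6.0 to 7.63 CPM, and ABCB8 and MPC2, a subunit of the pyruvate carrier, rose by 1.97 and 1.43. Of 4 family members outside the SLC25A numbering, the uncoupling protein UCP3 (2.19) and MTCH1 (1.42) rose and UCP2 fell (-0.58). Of 8 heme synthesis enzymes, 4 were higher and 1 was lower, with PPOX (1.30), UROD (-1.14) and CPOX (1.06) the largest. Of 11 enzymes of the malate-aspartate shuttle and citrate metabolism, 2 were higher and 2 lower, with IDH1 (-1.16), MDH1 (0.89) and ACO1 (0.79) the largest.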

How the data were processed

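RNA of HNT34 cells was sequenced from polyadenylated, strand-specific libraries in 3 groups of 3 (NT, sh#16 and sh#87), taken from the sample titles. A label field gives another number for the sh#87 hairpin, and titles were followed. The deposited file is 1 table of estimated counts per gene, all whole numbers, which the authors did not normalize. The submitters' processing notes name FastQC, STAR and GRCh38, while the file header names salmon outputs. Which of these made the counts is not given in the sources used here.

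Counts were analysed in R 4.3.3 with edgeR 4.0.16: filterByExpr, TMM, and the quasi-likelihood test over all genes with Benjamini-Hochberg adjustment. Each SE was derived as the absolute log2 fold change over the square root of the F statistic of that test. Both shRNAs together were compared with NT in a fit of 2 groups, where the difference between the shRNAs is part of the spread. Each shRNA was compared with NT and with the other in a fit of 3 groups. The scripts were tested on simulated data. CPM per kb used 1 transcript per gene (GENCODE annotation of GRCh37, the canonical or otherwise longest). Coordinates and upstream sequence are from RefSeq in GRCh38.p14. Depth was 17096170 to 43502389 counts per library, and the floor of 3 counts corresponds to 0.0649 to 0.165 CPM and covers counting error only. Same-numbered libraries were not paired, since their deviations correlated between -0.137 and 0.0827 over 9 pairs. No pair of libraries was alike within sampling noise.

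Alternatives were DESeq2 1.42.0, limma 3.58.1 (voom with a weight per group), other scalings, filters and thresholds, a replicate block, leaving out each library, and a length and GC correction (loess) added after the data were seen. The members, gene lists and motif were chosen with earlier results of these data known. Values in every library are given for members that passed an adjusted p of 0.01 together with a log2 fold change of 2 or more in either direction, and for the 5 members with the highest CPM per kb in NT. A log2 difference of at least 1 between the shRNAs would also have qualified, and no member had one. Other members are given by role with ranges and counts. Of the other lists, at most the 3 largest changes are named. The values of 1 of the 40 members and of 1 marker gene are not reported here, although both are included in the counts and sums.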

Additional observations from a re-analysis of the deposited data

Results flagged for a closer look

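Of 41 measures compared over the 6 knockdown libraries (the CPM of each SLC25A gene and their sum), 1 had an end library far from the others. SLC25A23 was at 61.0 CPM in sh#87 replicate 2 and at 67.2 to 70.8 CPM in the other knockdown libraries, a gap of 0.628 of the whole range, just above Dixon's limit for 6 samples. Chance alone passes this limit in about 1 in 20 groups. The shRNAs differed in their effect for 5 members, by the direct test of sh#87 against sh#16 in edgeR: SLC25A16 (log2 difference 0.73), SLC25A44 (0.67), SLC25A37 (0.41), SLC25A30 (-0.39) and SLC25A5 (-0.59).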

How the results depend on the processing

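With both shRNAs, 27 SLC25A genes were called, and DESeq2, limma-voom with weights, other normalizations and filters, the loosened adjusted p and the length and GC correction gave 25 to 32. A required log2 fold change of 1 in either direction left 15 genes (13 with sh#16, 16 with sh#87, 0 between the shRNAs), and one of 2 left 6 (6, 6 and 0). Fits without 1 library called 20 to 30 with both, 21 to 31 with sh#16, 25 to 36 with sh#87 and 3 to 13 between the shRNAs. The highest of each came without NT replicate 3, and between the shRNAs the fit without NT replicate 1 gave 10 and that without sh#16 replicate 1 gave 3. Between the shRNAs, where 5 were called, DESeq2 called 9, limma-voom with weights 15, a fit of only those groups 17, and an adjusted p of at most 0.05 gave 12. The cause was not tested. SLC25A36 with sh#87 reversed to 0.0164 after the length and GC correction and to 0.0171 with the replicate block added, and SLC25A40 with sh#87 to 0.263 and 0.265, with the cause not tested. The replicate block alone gave 24, 25, 26 and 5 calls, and the numbers did not pair the libraries. Upper-quartile scaling moved the median of all genes from 0.05 to 0.16. Depth limits SLC25A34 and SLC25A48, which lay at or near the 3-count floor in 1 or more libraries.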
